A study of Mus musculus with 36 samples.

Results

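The liver levels of 10 genes of the acute phase response, the change in plasma proteins that the liver makes during inflammation or injury, were followed over the 6 groups of the study. The genes were Saa1, Saa2, Saa3 and Saa4 (serum amyloid A), Orm1, Orm2 and Orm3 (orosomucoid, or alpha-1-acid glycoprotein), Lcn2 (lipocalin 2), Hp (haptoglobin) and Hpx (hemopexin). They were chosen by symbol: every array probe named for 1 of these genes in the scanner files was taken, which gave 12 probes for 10 of the 37325 genes on the array. All 12 probes gave a signal well above background on all 36 arrays, so all 10 genes passed the filter on dim probes, as 24251 genes did in all.

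The arrays measured RNA in the livers of 36 male C57Bl/6J mice, 1 array per mouse, in 6 groups of 6. AAKO mice lack adipose triglyceride lipase (ATGL, the product of Pnpla2, which begins the breakdown of stored fat) in white adipose tissue, and CTRL mice are their controls. The fed CTRL and fed AAKO mice ate freely and carry the treatment label ctrl. The fasted CTRL and fasted AAKO mice had no food for 24 h and carry the same treatment label. The CTRL and AAKO mice given CL316243, which activates the beta 3 adrenergic receptor and so drives fat breakdown in adipocytes, were fed and received 3 mg/kg by gavage at Zeitgeber time 10 in a carboxymethyl cellulose vehicle. Tissue was taken from every mouse at Zeitgeber time 16, after lights off. The promoter behind the deletion and the age of the mice were not given in the sources used here, and because the gene is deleted in fat, no liver probe checks the genotype label. The fed groups belong to experiment 2 and the other 4 to experiment 1, so every comparison with fed mice also compares experiments. A gavage is recorded for the CL316243 groups alone, and its part in any difference from the other groups cannot be told apart from that of the drug. Group labels name separate mice, and p-values here measure the spread between them.

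Acute phase genes are switched on in hepatocytes mainly by interleukin 6, which acts through the factor STAT3, and by interleukin 1, which acts through NF-kB, with the C/EBP family of factors at many of their promoters and glucocorticoids as helpers. Saa1 and Saa2 encode the serum amyloid A proteins that ride on high density lipoprotein and can rise very steeply in inflammation. Saa3 is also made by macrophages and adipocytes, and Saa4 is known as the constitutive member of the family. Orosomucoids are carrier proteins of plasma, lipocalin 2 binds bacterial siderophores and so withholds iron, haptoglobin binds free hemoglobin, and hemopexin binds free heme.

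The probes differ in how well they keep related genes apart. By the deposited coordinates on assembly mm9, the Saa probes lie between positions 53967559 and 54009594 of chromosome 7 and the Orm probes between 63007395 and 63025038 of chromosome 4. The Lcn2 probes lie on chromosome 2, the Hp probe on chromosome 8 and the Hpx probe on chromosome 7. The 60-base probes of the orosomucoids are shown because 2 of them are alike, with capitals at the bases that differ between the Orm1 and Orm3 probes where they overlap:
Orm1: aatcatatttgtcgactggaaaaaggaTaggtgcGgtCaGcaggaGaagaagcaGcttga
Orm3: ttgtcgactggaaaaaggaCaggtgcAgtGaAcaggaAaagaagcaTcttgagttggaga
Orm2: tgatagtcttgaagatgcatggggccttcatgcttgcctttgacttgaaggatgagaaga
The Orm1 and Orm3 probes overlap over 52 bases with 6 differences and share a run of 19 identical bases. The Orm1 probe is also listed in the files for transcripts of 2 genes, Orm1 and Orm2. Values named Orm1 may therefore hold signal from its relatives. Orm3 has a second probe of another sequence, which the scanner files name Orm3 but which was matched to 0 genes of the RefSeq table, and Lcn2 has 2 probes.

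Saa1 and Saa2 are near copies as genes, but their probes were drawn from different stretches and share no run longer than 5 bases. The Saa1 and Saa3 probes are shown as examples of probes that share as little:
Saa1: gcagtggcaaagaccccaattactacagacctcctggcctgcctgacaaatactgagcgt
Saa3: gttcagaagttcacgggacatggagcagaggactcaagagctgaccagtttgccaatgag
These 2 probes also share no run longer than 5 bases. The Saa1 and Saa2 probes are each listed in the files for transcripts of their own gene alone. A comparison of probe with probe cannot show whether the Saa1 probe also binds Saa2 transcripts, or the reverse. This was not checked, so values named Saa1 and Saa2 may share signal. Levels are given as log2 of the processed signal minus the 75th percentile of the array, so that 0 is the brightness of the 75th percentile and 1 unit is a doubling. Levels are compared between groups for 1 probe at a time.

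RefSeq start sites (assembly GRCm38.p6) were at hand for 8 of the 10 genes, and Orm1 and Hp had no entry. The 250 bases before the start held a C/EBP type motif, spelled TTGCNNAA and searched on both strands, in 8 of 8 genes. The same motif occurred in 9.56% of 32851 promoters of that length. A STAT type motif, TTCNNNGAA, was found in 0 of the 8 and in 7.02% of all promoters. An NF-kB type motif, 3 G, any 5 bases and 2 C, was found in 4 of the 8 and in 45.8% of all. Letters that match a motif are a description and not a bound site. The Saa1 and Saa2 windows below are shown because the levels of these genes tracked each other most closely from mouse to mouse, with the C/EBP type match in capitals:
Saa1: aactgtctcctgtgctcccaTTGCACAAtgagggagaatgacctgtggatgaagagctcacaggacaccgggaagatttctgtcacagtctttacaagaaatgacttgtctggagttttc
Saa2: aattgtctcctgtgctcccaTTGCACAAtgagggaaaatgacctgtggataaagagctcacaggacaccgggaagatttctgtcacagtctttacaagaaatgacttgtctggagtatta
The Saa1 window is chr7:46743063-46743182 on the minus strand and the Saa2 window is chr7:46751630-46751749 on the plus strand. They are identical at 115 of 120 bases, and the whole 250-base stretches are 94.8% identical.

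The other 6 matches are shown in windows of 40 bases, with the match nearest the start in capitals, to let a reader compare what surrounds it:
Saa3: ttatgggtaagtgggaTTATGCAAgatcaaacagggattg
Saa4: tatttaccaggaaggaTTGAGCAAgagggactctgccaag
Orm2: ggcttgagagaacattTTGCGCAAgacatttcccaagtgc
Orm3: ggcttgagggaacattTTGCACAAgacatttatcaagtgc
Lcn2: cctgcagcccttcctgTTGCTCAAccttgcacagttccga
Hpx: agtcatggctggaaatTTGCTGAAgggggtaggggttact
They lie at chr7:46715752-46715791 (Saa3, minus strand), chr7:46732632-46732671 (Saa4, minus), chr4:63362313-63362352 (Orm2, plus), chr4:63356021-63356060 (Orm3, plus), chr2:32387932-32387971 (Lcn2, minus) and chr7:105600293-105600332 (Hpx, minus). Orm2 and Orm3 are 85.9% identical over the 250 bases, so the 8 promoters are not 8 independent sequences. Saa4 held 2 matches and each other gene 1.

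Between 33130 and 37200 of 56605 probes per array were well above background. The 7 hepatocyte markers were well above background on every array, and their mean level ran from 8.62 to 9.18 over the 36 arrays. With CL316243 it lay at 8.62 to 8.86 in CTRL and at 8.96 to 9.18 in AAKO mice, without overlap. Between fasted genotypes 2 of the 7 were higher and 4 lower in AAKO mice (limma, 49.2% of all genes called). Between genotypes given CL316243, 3 were higher and 0 lower (24.5%). In fasted against CL316243-treated AAKO mice 2 were higher and 3 lower (60.0%). Their part in the results was not tested. Markers of neutrophils, of macrophages and of stellate and endothelial cells varied more between mice. In bulk liver, fewer cells of a type and less RNA per cell cannot be told apart.

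**Figure D1:**
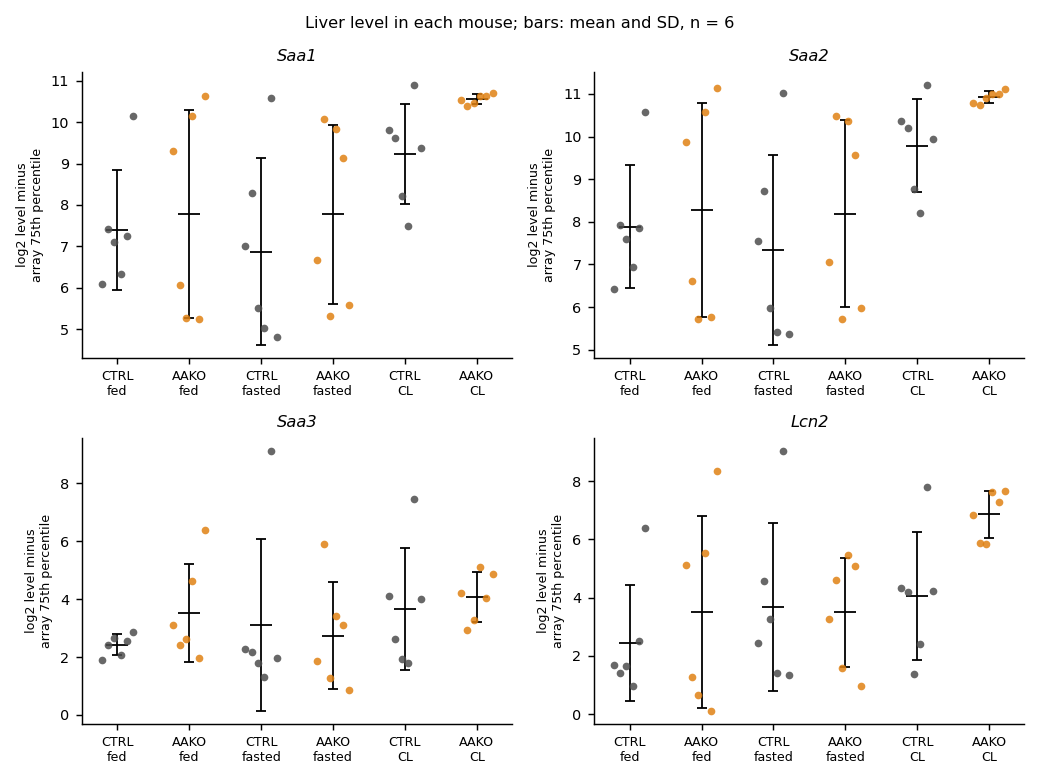
Level of Saa1, Saa2, Saa3 and Lcn2 in each mouse (points; log2 processed signal minus the array's 75th percentile), by genotype and condition, with group mean and SD (bars, n = 6). The 6 AAKO mice given CL316243 sit between 10.39 and 10.69 for Saa1, while each of the other groups spans more than 3 log2 units.

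Saa1 and Saa2 differed widely between mice of the same group. Saa1 lay at 6.09 to 10.14 in fed CTRL mice (median 7.19) and at 5.25 to 10.64 in fed AAKO mice (median 7.68). It lay at 4.81 to 10.59 in fasted CTRL mice (median 6.26) and at 5.32 to 10.09 in fasted AAKO mice (median 7.90). These 4 groups overlapped almost completely, and in each of them at least 1 mouse was above 10. The CTRL mice given CL316243 reached from 7.49 to 10.90 (median 9.49), and the AAKO mice given CL316243 lay at 10.39, 10.47, 10.53, 10.62, 10.64 and 10.69. The lowest and highest mouse differed 41.8-fold in fed AAKO mice, 54.9-fold in fasted CTRL mice, 10.6-fold in CTRL mice given CL316243 and 1.24-fold in AAKO mice given CL316243. Alb, a hepatocyte marker, lay at 10.37 to 10.90 over the 36 arrays, so the highest Saa1 levels were at that of Alb. In all arrays 0 spots were marked as saturated. Whether the signal flattens at such levels, which would narrow ranges and folds, was not tested.

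Saa2 repeated this picture on a probe of another sequence, whose binding to Saa1 transcripts was not checked. Saa2 levels were 6.43 to 10.59 in fed CTRL, 5.72 to 11.14 in fed AAKO, 5.38 to 11.01 in fasted CTRL and 5.71 to 10.48 in fasted AAKO mice. They were 8.22 to 11.21 in CTRL mice and 10.75 to 11.13 in AAKO mice given CL316243. The same mouse was highest for both genes in all 6 groups.

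Lcn2 had the widest range of the 10 genes within a group. Fed AAKO mice lay at 0.12, 0.66, 1.26, 5.12, 5.53 and 8.36, which is 302-fold from end to end and falls into 3 low and 3 high mice. Fed CTRL mice lay between 0.98 and 6.40 (median 1.67), and only replicate 6 was above 2.51. Fasted CTRL mice ran from 1.36 to 9.04 (median 2.85) and fasted AAKO mice from 0.97 to 5.45 (median 3.94). CTRL mice given CL316243 ran from 1.39 to 7.79 (median 4.21). AAKO mice given CL316243 all lay between 5.85 and 7.67 (median 7.06), above every fasted AAKO mouse and every CL316243-treated CTRL mouse but 1.

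Saa3, the member shared with macrophages and adipocytes, was low in most mice. In fasted CTRL mice replicate 5 stood at 9.13 while the other 5 lay between 1.32 and 2.28. Fed CTRL mice were the most alike, at 1.91 to 2.88 (median 2.49). Fed AAKO mice lay at 1.97 to 6.40 (median 2.87) and fasted AAKO mice at 0.85 to 5.91 (median 2.48). With CL316243, CTRL mice lay at 1.79 to 7.45 (median 3.32) and AAKO mice at 2.95 to 5.12 (median 4.13). Fed CTRL mice and AAKO mice given CL316243 did not overlap for this gene, a pair that differs in genotype, treatment and experiment and was not tested, and every other pair of groups did.

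**Figure D2:**
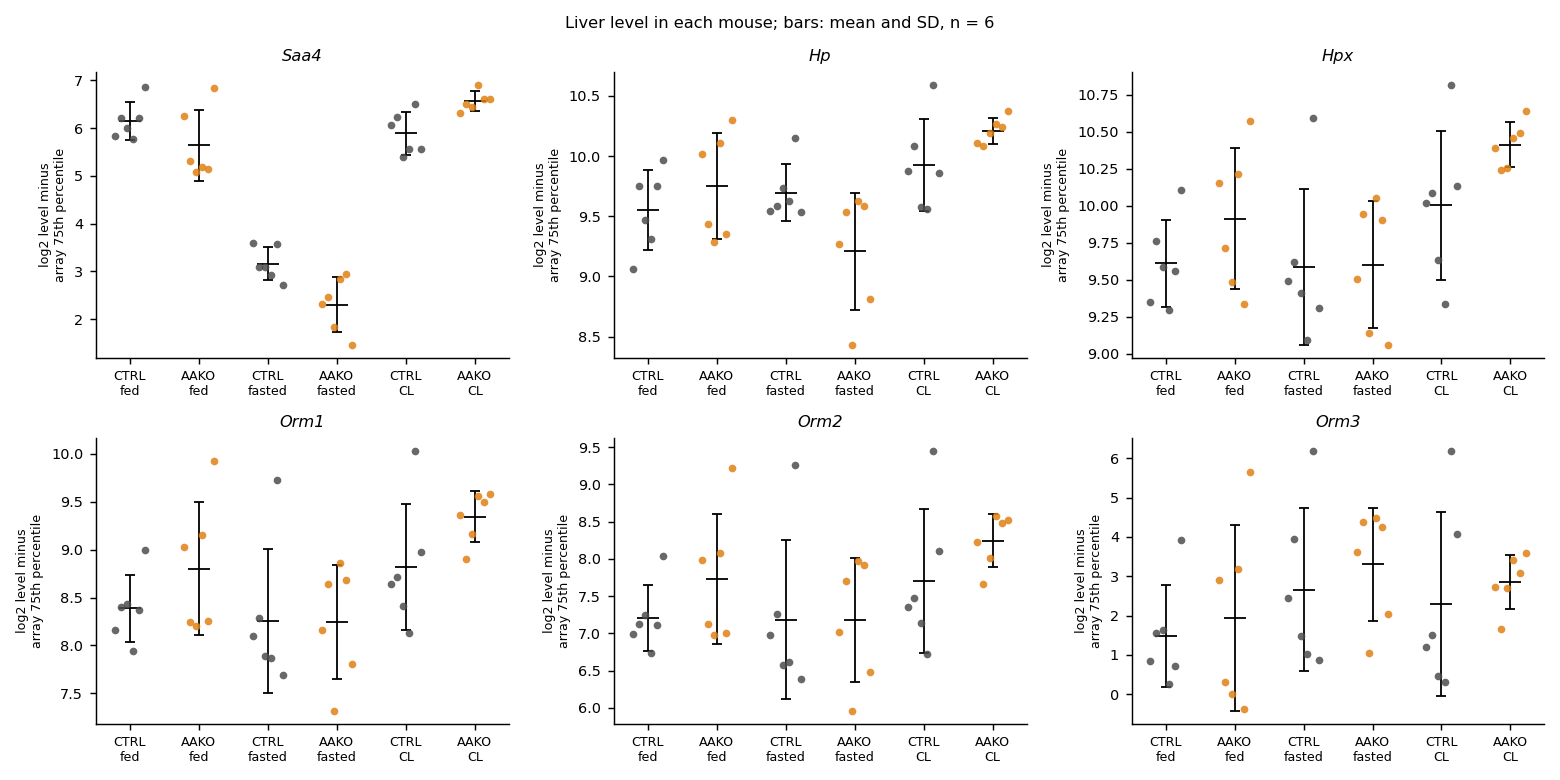
Level of Saa4, Hp, Hpx, Orm1, Orm2 and Orm3 in each mouse (points; log2 processed signal minus the array's 75th percentile), with group mean and SD (bars, n = 6). Saa4 is low in all 12 fasted mice, at 3.59 or less, and at 5.08 or more in the other 24.

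Orm1 and Orm2 differed by less between mice than Orm3. Orm1 lay at 7.94 to 8.43 in 5 fed CTRL mice and higher in replicate 6 (median of all 6, 8.39). It lay at 8.20 to 9.92 in fed AAKO (median 8.64), 7.69 to 9.73 in fasted CTRL (median 7.99) and 7.32 to 8.86 in fasted AAKO mice (median 8.40). With CL316243 it lay at 8.13 to 10.03 in CTRL (median 8.67) and 8.90 to 9.58 in AAKO mice (median 9.43). Only the last group lay wholly above fasted AAKO mice. Orm2 lay at 6.74 to 8.04 in fed CTRL (median 7.12), 6.98 to 9.22 in fed AAKO (median 7.56), 6.39 to 9.26 in fasted CTRL (median 6.80) and 5.96 to 7.98 in fasted AAKO mice (median 7.36). With CL316243 it lay at 6.72 to 9.45 in CTRL (median 7.41) and 7.66 to 8.58 in AAKO mice (median 8.35), and here the lowest treated AAKO mouse fell within the range of the fasted ones.

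Orm3 ran from 0.27 to 3.92 in fed CTRL (median 1.21), from -0.37 to 5.64 in fed AAKO (median 1.61), from 0.87 to 6.18 in fasted CTRL (median 1.97) and from 1.04 to 4.49 in fasted AAKO mice (median 3.94). With CL316243 it ran from 0.30 to 6.19 in CTRL (median 1.36) and from 1.65 to 3.58 in AAKO mice (median 2.91). All 6 groups overlapped for Orm3.

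Hp and Hpx, which bind hemoglobin and heme, had the narrowest ranges over the 36 mice. Hp lay at 9.06 to 9.97 in fed CTRL, 9.29 to 10.30 in fed AAKO, 9.54 to 10.15 in fasted CTRL and 8.43 to 9.63 in fasted AAKO mice. With CL316243 it lay at 9.56 to 10.59 in CTRL and 10.08 to 10.38 in AAKO mice. Every AAKO mouse given CL316243 was above every fasted AAKO mouse. Hpx lay at 9.30 to 10.11 in fed CTRL, 9.33 to 10.57 in fed AAKO, 9.09 to 10.59 in fasted CTRL and 9.06 to 10.05 in fasted AAKO mice. With CL316243 it lay at 9.34 to 10.82 in CTRL and 10.24 to 10.64 in AAKO mice, again above every fasted AAKO mouse.

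Saa4 separated the fasted mice from all others. Fed CTRL mice lay at 5.78 to 6.87 (median 6.11) and fed AAKO mice at 5.08 to 6.85 (median 5.26). Fasted CTRL mice lay at 2.72, 2.94, 3.08, 3.09, 3.57 and 3.59. Fasted AAKO mice lay at 1.47, 1.83, 2.31, 2.46, 2.83 and 2.95. CTRL mice given CL316243 lay at 5.40 to 6.51 (median 5.82) and AAKO mice given CL316243 at 6.32 to 6.91 (median 6.56). No fasted mouse of either genotype reached the level of any fed or CL316243-treated mouse.

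Fasting was set against CL316243 within experiment 1, and in AAKO mice this comparison touched most of the genes. In fasted AAKO mice 8 of the 10 genes were lower than in AAKO mice given CL316243 and 0 were higher, while 60.0% of all tested genes were called and 34.0% were lower. Saa4 differed most, with a log2 difference of -4.31 (SE 0.256), which is 19.9-fold, and an adjusted p of 5.62e-15 (limma, Benjamini-Hochberg over all genes). Lcn2 differed by -3.47 (SE 1.30, adjusted p = 0.0220), Saa1 by -2.89 (SE 1.01, adjusted p = 0.0140) and Saa2 by -2.85 (SE 1.00, adjusted p = 0.0147). Orm1 was lower by 1.12 on the log2 scale (2.17-fold), Orm2 by 1.11 (2.15-fold), Hp by 1.01 (2.02-fold) and Hpx by 0.82 (1.77-fold). Of the 8, 7 did not overlap between the 2 groups, Orm2 being the exception, against 37.3% of all genes. The median difference of the 10 genes was -1.21, beside -0.08 over all tested genes. Saa3 (-1.29, SE 1.04) and Orm3 (0.34, SE 1.01; -0.28 within wash batch 1) did not pass the test.

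Without fasted AAKO replicate 3, the mouse with the lowest level of 6 of the 10 genes, 5 genes were called, and Saa2 was at -2.38 (adjusted p = 0.0511). The Lcn2 call was also lost without fasted replicate 6 (-3.12 to -2.99 over both), and the Orm2 call without fasted replicate 1, 3 or 6 or treated replicate 4, 5 or 6 (-1.06 to -0.86). Orm2 also missed the threshold under quantile normalization, with the authors' deposited table, without the filter on dim probes and with slide as a fixed factor (-1.11 to -0.95, adjusted p from 0.0507 to 0.0586). Within wash batch 1 all 8 differences kept their sign and 5 passed (Saa4, Lcn2 at -4.53, Orm1, Hp and Hpx), while Saa1 was at -3.56 and missed the threshold (adjusted p = 0.0569). Within wash batch 2, which holds 3 fasted and 2 CL316243-treated AAKO mice, all 8 kept their sign and 2 passed (Saa4 and Hp). Saa1 was at -2.01 and Lcn2 at -2.13 there. In a fit over single probes, the second Lcn2 probe gave -3.70 (adjusted p = 0.0209, limma over 36550 probes). The second probe named Orm3, by contrast, was higher in fasted AAKO mice by 1.80 (SE 0.604, adjusted p = 0.0109), where the brighter Orm3 probe gave no call. In the comparison of fasted with CL316243-treated AAKO mice 60.0% of all genes were called. There 6 of 11 neutrophil markers and 4 of 6 stellate and endothelial markers were higher on fasting, and 0 and 1 were lower. The part of these markers in the result was not tested.

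In CTRL mice the same comparison left Saa4 as the 1 gene called. Saa4 was lower in fasted than in CL316243-treated CTRL mice by 2.72 on the log2 scale (SE 0.255, adjusted p = 7.36e-10), with no overlap, while 37.1% of all genes were called, 19.3% were lower and 17.9% did not overlap. Saa1 (-2.36, SE 1.00, adjusted p = 0.0646) and Saa2 (-2.45, SE 0.997, adjusted p = 0.0529) missed the threshold. Fasted CTRL replicate 5 was the highest of its group in 9 of the 10 genes, and without it 5 genes were called lower, with Saa1 at -3.20 and Saa2 at -3.27. The difference between genotypes in this response passed the test for Saa4 (-1.59, SE 0.361, adjusted p = 9.82e-04) and Hp (-0.79, SE 0.285, adjusted p = 0.0335), while 31.8% of all genes were called and 18.5% in that direction. The Hp call was lost without fasted CTRL replicate 5, fasted AAKO replicate 3 or 6, treated CTRL replicate 3 or 4 or treated AAKO replicate 6 (from -0.75 to -0.63, adjusted p from 0.0511 to 0.0796), without the filter on dim probes (adjusted p = 0.0533) and within either wash batch (-1.01 and -0.55). The Saa4 difference was -1.62 and -1.50 within the batches and missed the threshold in the second (adjusted p = 0.0855). In CTRL mice 4 of 6 stellate and endothelial markers were higher on fasting than with CL316243 and 1 was lower, and their part was not tested. For Lcn2 the difference between genotypes in the response to fasting against CL316243 was -3.09 (SE 1.84) and did not pass in limma (adjusted p = 0.214).

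**Figure D3:**
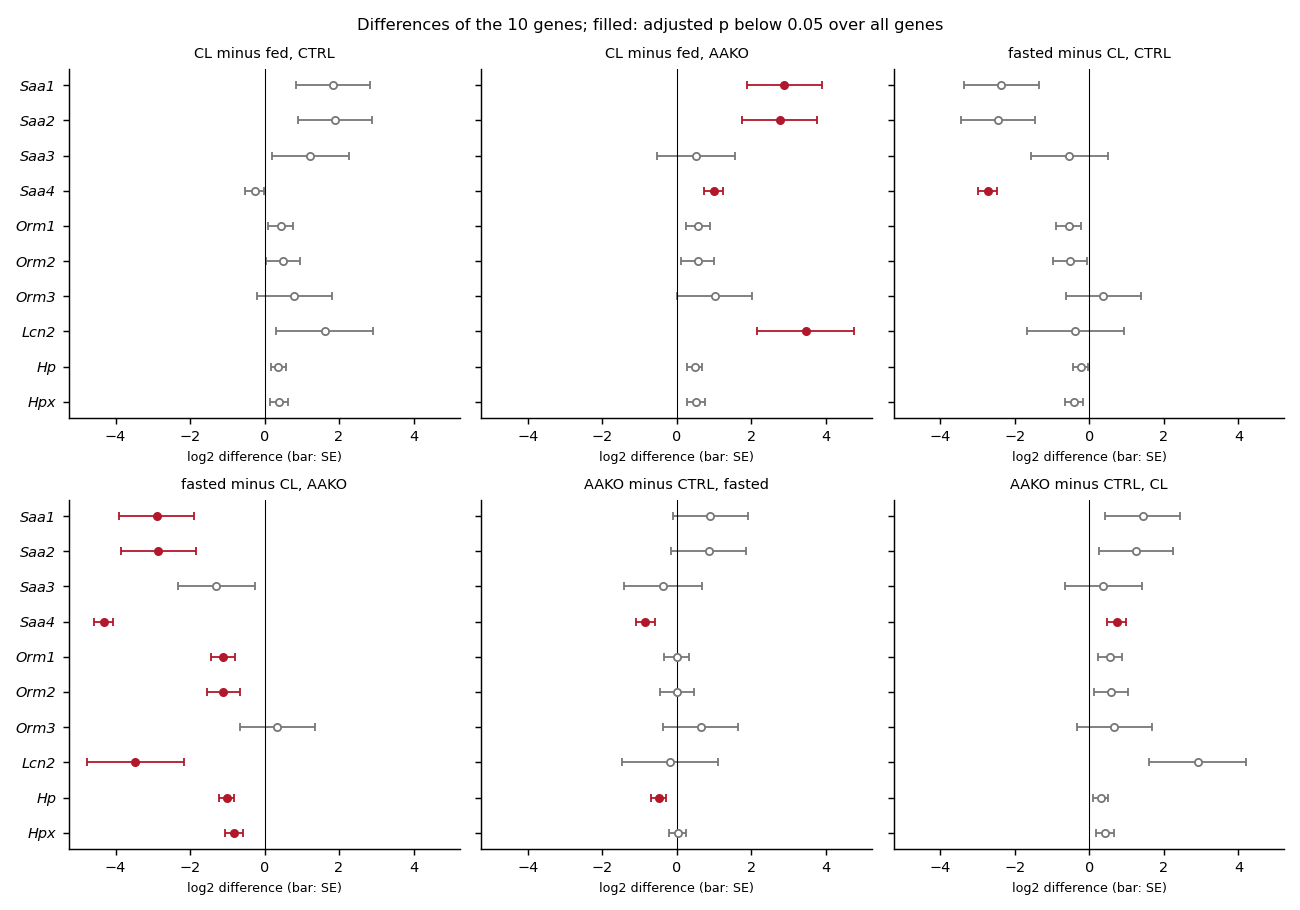
Log2 difference of each of the 10 genes with its SE (horizontal bars) in 6 comparisons, filled where the adjusted p over all genes was below 0.05. Calls are found in 4 genes for CL316243 against fed AAKO mice and in 8 for fasted against CL316243-treated AAKO mice, and the widest bars belong to Lcn2.

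CL316243 was set against free feeding across the 2 experiments. In AAKO mice 4 genes rose, while 31.4% of all genes were called and 15.5% rose: Lcn2 by 3.46 (SE 1.30, adjusted p = 0.0415), Saa1 by 2.88 (SE 1.01, 7.38-fold, adjusted p = 0.0279), Saa2 by 2.76 (SE 1.00, 6.77-fold, adjusted p = 0.0341) and Saa4 by 0.98 (SE 0.256, 1.97-fold, adjusted p = 3.50e-03). All 10 differences were positive, with a median of 0.77 beside -0.01 over all genes. These genes go together in a mouse, so the 10 signs are not independent. Hp (0.47, adjusted p = 0.0723) and Hpx (0.51, adjusted p = 0.104) did not pass. Fed AAKO replicate 6 lay within or above the treated range for each of the 4 called genes. Depending on which fed AAKO mouse was left out, the count ran from 1 (without replicate 2, 3 or 5) to 6 (without replicate 6). Without replicate 2, 3 or 5 Saa1 lay at 2.40 to 2.48 (adjusted p from 0.0712 to 0.0863). The Lcn2 call was also lost without treated replicate 1, 4, 5 or 6, and the Saa2 call without treated replicate 1, 5 or 6 (adjusted p up to 0.125 and 0.102 over these and the fed replicates). Both calls were lost without the filter on dim probes (adjusted p = 0.0648 for Lcn2 and 0.0537 for Saa2), and that of Lcn2 with only the groups compared (0.0555).

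The 4 rises were not of one size in the 2 wash batches. Within batch 1 Saa4 passed (1.38), while Lcn2 was at 4.81, Saa1 at 3.67 and Saa2 at 3.56 and missed the threshold. Within batch 2 none of the 4 passed, with Saa1 at 1.88, Lcn2 at 1.82, Saa2 at 1.75 and Saa4 at 0.53 (adjusted p from 0.462 to 0.598). Of the 9 Kupffer cell and macrophage markers 7 were lower in AAKO mice given CL316243 than in fed AAKO mice and 0 higher (Adgre1 by 1.47, Vsig4 by 1.42). Over all genes 31.4% were called. The group ranges of their mean level were 1.00 to 1.52 and 1.85 to 2.52. In CTRL mice 5 of the 9 were lower with CL316243 and 0 higher. The part of these markers in the result was not tested.

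In CTRL mice 0 of the 10 genes passed for CL316243 against fed, in a comparison where 23.1% of all genes did, and 0 had an unadjusted p below 0.05. Of the 10 values 9 were positive (Saa1 1.84, SE 1.00; Saa2 1.90, SE 0.997; Lcn2 1.61, SE 1.30) and Saa4 was at -0.27 (SE 0.255). Within wash batch 2 the Lcn2 difference was -0.21. Of the markers, 5 of 9 for macrophages and 4 of 6 for stellate and endothelial cells were lower with CL316243. In both lists 0 were higher, 0 of 11 neutrophil markers were called, and the part of these markers was not tested. The response to CL316243 differed between genotypes for 1 gene, Saa4 (1.25, SE 0.361, adjusted p = 0.0214), while 10.8% of all genes were called and 6.20% in that direction. Within the wash batches it was 1.28 and 1.16 and passed in neither. For Saa1 and Lcn2 the difference between the responses was 1.04 (SE 1.42) and 1.84 (SE 1.84), and neither passed.

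Genotypes were compared within each condition. In fed mice 0 of the 10 genes passed, as few genes did at all (0.0783%), and 0 had an unadjusted p below 0.05. Of the 10 values 9 were positive, with a median of 0.40 beside -0.0007 over all genes. The largest values there were 1.10 for Saa3 (SE 1.04) and 1.07 for Lcn2 (SE 1.30), which were 0.48 and 0.13 without fed AAKO replicate 6, and Saa4 was at -0.52 (SE 0.255, adjusted p = 0.730). In fasted mice Saa4 was lower in AAKO than in CTRL by 0.86 on the log2 scale (SE 0.255, 1.81-fold, adjusted p = 5.77e-03), and Hp by 0.49 (SE 0.201, 1.40-fold, adjusted p = 0.0447). That is 2 of 10 genes called, both lower, while 49.2% of all genes were called and 27.2% were lower. Both genes overlapped between genotypes, while 21.3% of all genes did not, and within the wash batches the Saa4 difference was -1.21 and -0.51 and the Hp difference -0.88 and -0.09, neither passing in the second. The Hp call was lost without CTRL replicate 3, 4, 5 or 6 or AAKO replicate 1, 3 or 6 (from -0.51 to -0.33, adjusted p from 0.0506 to 0.164), with the array median (0.0507), without the filter on dim probes (0.0684) and with only the groups compared (0.0767). Neutrophil markers moved in this comparison too: 6 of 11 were higher in fasted AAKO than in fasted CTRL mice and 0 lower, with group ranges of -1.69 to 0.91 and -3.68 to 0.47 for their mean level, and their part in the result was not tested.

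With CL316243, 1 gene was higher in AAKO than in CTRL mice, Saa4, by 0.73 (SE 0.256, 1.66-fold, adjusted p = 0.0341), while 24.5% of all genes were called and 12.9% were higher. All 10 values were positive, with a median of 0.62 against 0.03 over all genes. In fed mice, where 0 genes of the 10 were called, 9 were positive with a median of 0.40. The levels of these genes go together in a mouse, so the 10 signs are not independent. Lcn2 was at 2.91 (SE 1.30, 7.51-fold, adjusted p = 0.104) and Saa1 at 1.43 (SE 1.01, adjusted p = 0.328). Without CTRL replicate 5, the treated control with the highest level of all 10 genes, Lcn2 was at 3.80 and passed (adjusted p = 0.0326). The Saa4 difference was 0.41 in the first wash batch and 1.00 in the second and passed in neither. Leaving out CTRL replicate 3, 4 or 6 or AAKO replicate 2, 4, 5 or 6 ended the call (Saa4 at 0.61 to 0.72, adjusted p from 0.0515 to 0.0954), as did dropping the filter on dim probes (adjusted p = 0.0548) or the wash batch term (0.0667).

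Fasting was set against feeding across the experiments. In CTRL mice Saa4 fell by 2.99 (SE 0.255, 7.95-fold, adjusted p = 5.07e-11) and no other gene of the 10 passed, while 43.8% of all genes were called, 24.0% were lower and 22.8% did not overlap. In AAKO mice Saa4 fell by 3.33 (SE 0.255, adjusted p = 7.19e-13) and Hp by 0.54 (SE 0.201, 1.45-fold, adjusted p = 0.0197), while 63.6% of all genes were called, 36.1% were lower and 42.7% did not overlap. The Hp call was lost without fed replicate 4 or 6 or fasted replicate 3 or 6 (from -0.47 to -0.39, adjusted p from 0.0546 to 0.0848) and within either wash batch (-0.66 and -0.42). In each genotype Saa4 was the 1 gene of the 10 without overlap. Markers of other cells moved in the same comparisons. In AAKO mice 6 of 9 macrophage markers were lower on fasting and 0 higher (mean level -0.34 to 1.65 fasted and 1.85 to 2.52 fed), 6 of 11 neutrophil markers were higher and 1 lower (-1.69 to 0.91 and -3.37 to 0.25), and 3 of 6 stellate and endothelial markers were higher and 1 lower (1.25 to 2.04 and 1.19 to 1.42). In CTRL mice 3 of 9 macrophage markers were lower on fasting and 0 higher (0.50 to 2.11 and 1.11 to 2.31), 0 of 11 neutrophil markers were called, and 2 of 6 stellate and endothelial markers were higher and 1 lower. Their part in the results was not tested.

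The comparisons of fasting and of CL316243 with fed mice share the fed animals. For the difference between genotypes in the response to fasting against feeding 0 of the 10 genes passed in limma, while 33.6% of all genes did. There 1 gene, Hp, had an unadjusted p below 0.05 (-0.68, SE 0.284, adjusted p = 0.0624). On fasting against feeding Lcn2 was at 1.24 (SE 1.30) in CTRL mice, and at -0.72 within the second wash batch. Orm3 was at 1.17 (SE 1.00) in CTRL and 1.36 (SE 1.00) in AAKO mice on its brighter probe, neither past the threshold. The second probe named Orm3 rose by 1.78 in AAKO mice (SE 0.602, adjusted p = 0.0104).

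**Figure D4:**
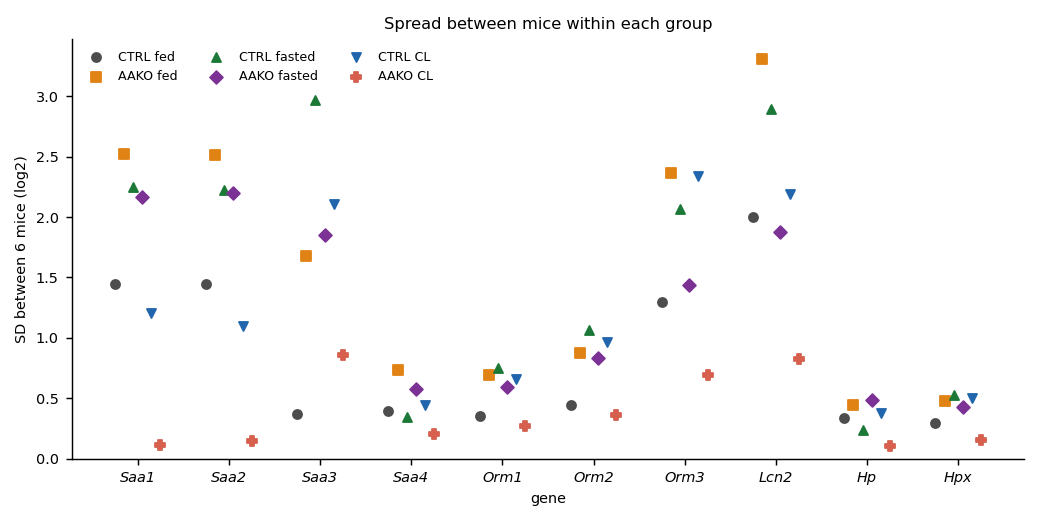
SD between the 6 mice of each group (vertical axis, log2 units, from 0) for each of the 10 genes. The AAKO mice given CL316243 have the smallest SD of the 6 groups in 9 of the 10 genes, the exception being Saa3.

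The spread between mice also differed from group to group. The SD of AAKO mice given CL316243 was the smallest of the 6 groups for 9 of the 10 genes and was 0.12 for Saa1 and 0.82 for Lcn2. Its median over the 10 genes was 0.23, beside 0.42 in fed CTRL, 1.28 in fed AAKO, 1.57 in fasted CTRL, 1.13 in fasted AAKO and 1.03 in CTRL mice given CL316243. Over all tested genes the 6 groups were much alike, with median SDs from 0.20 to 0.25, and the AAKO mice given CL316243 were the tightest group for 14.8% of genes. The levels of these genes go together in a mouse, so the 10 SDs are not independent, and the difference in spread was not tested. Saa1 and Saa2 lay near the level of Alb in AAKO mice given CL316243. Whether the signal flattens there was not tested. The limma model uses 1 spread per gene for all groups.

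Single mice were high or low for nearly the whole set. Fed CTRL replicate 6, fed AAKO replicate 6 and CL316243-treated CTRL replicate 5 each had the highest level of their group in 10 of 10 genes, and fasted CTRL replicate 5 in 9 of 10. CL316243-treated CTRL replicate 4 and fasted CTRL replicate 6 had the lowest level in 8 of 10. In the narrow range of AAKO mice given CL316243, replicate 2 was lowest in 8 of 10 genes and replicate 6 highest in 7. After the group mean was taken away, Saa1 tracked each other member over the 36 mice. The closest was Saa2 (Pearson r = 0.999, Spearman rho = 0.997), then Lcn2 (r = 0.925, rho = 0.925) and Hpx (r = 0.922, rho = 0.942). Whether the Saa1 and Saa2 probes share signal was not checked. The loosest were Saa3 (r = 0.784, rho = 0.813) and Saa4 (r = 0.762, rho = 0.772). Orm1, Orm2, Orm3 and Hp lay between, with r from 0.856 to 0.895.

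In each of these 9 relations both permutation p-values (within groups, two-sided, 100000 permutations) were 1e-05, the smallest they can give, and 1.33e-05 after adjustment over 12 relations. Without the 2 mice farthest from the median of Saa1 the values of r ran from 0.718 (Saa3) to 0.999 (Saa2). Within the wash batches they held too, from 0.724 (Saa3, batch 2) to 0.999 (Saa2, both).

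The same mice also differed in immune cell markers. The Saa1 deviation went with the mean of 11 neutrophil markers (r = 0.615, rho = 0.647, adjusted permutation p = 0.00268 and 0.000545) and with that of 9 Kupffer cell and macrophage markers (r = 0.610, rho = 0.609, adjusted p = 7.2e-05 and 0.000216). Without the 2 farthest mice r was 0.543 and 0.550. The within-batch values were 0.674 and 0.588 for neutrophil markers and 0.693 and 0.526 for macrophage markers. For the 7 hepatocyte markers r was 0.171 (rho = 0.182, adjusted p = 0.329 and 0.302). Alb, Apoa1, Ttr and Fgb among these 7 are themselves acute phase genes, so their mean is not a reference apart from that response. The part of the immune cells in the levels of the 10 genes was not tested.

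**Figure D5:**
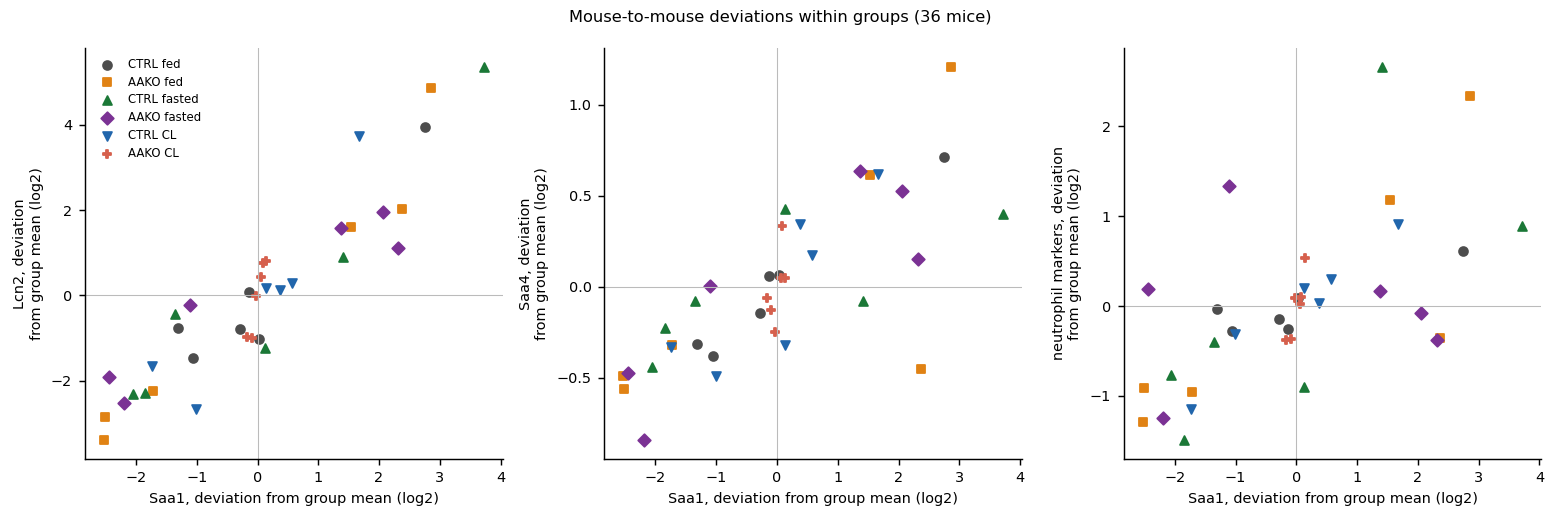
Deviation of each of the 36 mice from its group mean for Saa1 (horizontal, log2) against Lcn2, Saa4 and the mean of 11 neutrophil markers (vertical, log2), with 1 symbol per group. The AAKO mice given CL316243 crowd at the centre, and the other 5 groups stretch along the diagonal in the Lcn2 panel (r = 0.925).

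The mean level of the neutrophil markers had its highest group median in fasted AAKO mice, at -1.69 to 0.91 (median -0.39). In AAKO mice given CL316243 it lay at -2.54 to -1.63 (median -2.11) and in fed AAKO mice at -3.37 to 0.25 (median -2.72). Of the 11 neutrophil markers 6 were higher in fasted than in CL316243-treated AAKO mice (S100a8 by 2.97, S100a9 by 2.45, Mmp8 by 2.31 and 3 others) and 0 were lower. Over all genes 60.0% were called in that comparison, so the count of called markers was not above the general share. Between genotypes given CL316243, 0 of the 11 were called, beside 24.5% of all genes. Ngp, Ltf, Retnlg and Cxcr2 among the neutrophil markers and Ccr2 among the macrophage markers were not well above background on every array. No size is given for any of them alone. They do enter the mean levels, the counts of called markers and the relations with Saa1, which thus rest in part on dim signal. Ngp was well above background on 11 of the 36 arrays and Ltf on 14.

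Other genes that rise in the acute phase were set beside the 10. Of 24 such genes, 17 differed between fasted and CL316243-treated AAKO mice, 16 of them lower on fasting, with a list median of -0.66, while 60.0% of all genes were called and 34.0% were lower. The largest were Apcs (-3.21), which encodes serum amyloid P, Steap4 (-2.53), a metalloreductase, and Fga (-1.85), a fibrinogen chain. Cd14, a receptor for bacterial lipopolysaccharide, went the other way (3.55). For CL316243 against fed AAKO mice 16 of 24 were called, 15 of them higher, against 31.4% called and 15.5% higher over all genes, led by the metallothioneins Mt2 (4.00) and Mt1 (3.17) and by Serpina3n (2.39), a protease inhibitor. Between genotypes given CL316243, 11 of 24 were called, 10 of them higher in AAKO (Mt2 3.13, Serpina3n 2.40, Mt1 2.31), with a list median of 0.52, against 24.5% called and 12.9% higher over all genes. In fasted mice 10 of 24 differed between genotypes, 4 higher and 6 lower in AAKO, led by Cd14 (2.78) and Il1rn (-2.69), the interleukin 1 receptor antagonist, and 49.2% of all genes did. In CTRL mice given CL316243 against fed CTRL mice, 5 were higher and 0 lower, while 23.1% of all genes were called.

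Of 11 genes listed here as falling in the acute phase, 8 were lower in fasted than in CL316243-treated AAKO mice and 0 higher. The list median was -0.27, and 60.0% of all genes were called and 34.0% were lower. The largest were Serpina10 (-2.47), which encodes an inhibitor of factor Xa, and Serpina6 (-0.76), the corticosteroid-binding globulin. Whether Serpina10 belongs in this list was not checked. For CL316243 against fed AAKO mice 1 was higher (Serpina10, 1.60) and 1 lower (Rbp4, -0.16), Rbp4 encoding the retinol carrier of plasma, where 31.4% of all genes were called. Between genotypes given CL316243, where 24.5% were, Serpina10 was the 1 gene called (1.46).

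Among 23 tested genes for cytokines, receptors and factors that induce the acute phase, 8 were higher and 0 lower in AAKO mice given CL316243 than in fed AAKO mice, while 31.4% of all genes were called and 15.5% were higher. Socs3, the feedback inhibitor of the interleukin 6 pathway and itself a STAT3 target, was higher by 3.37 (SE 0.496, adjusted p = 3.71e-06). Il1r1, the interleukin 1 receptor, was higher by 2.29, Stat3 by 1.70 and Tnfrsf1a, a receptor for tumor necrosis factor, by 1.39. In CTRL mice 3 of the 23 were higher and 4 lower with CL316243 (23.1% of all genes called), and Socs3 (1.96, SE 0.494, adjusted p = 3.84e-03) and Stat3 (1.27, SE 0.191, adjusted p = 1.21e-05) were among the higher ones. Between genotypes given CL316243 12 were higher in AAKO and 2 lower (over all genes 24.5% were called and 12.9% higher), led by Il1r1 (2.47), Il1b (2.23), Socs3 (1.68) and Osmr (1.59), the oncostatin M receptor. Between genotypes in fasted mice 15 were higher in AAKO and 2 lower (49.2% of all genes called), led by Il1r1 (2.34) and Il6ra (1.79), the interleukin 6 receptor, with Il1b lower (-1.08). Il6 and Osm were too dim to test.

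Socs3 was lower on fasting than with CL316243 in both genotypes, by 2.23 on the log2 scale in CTRL and 2.99 in AAKO mice. Of 9 genes tied to glucocorticoid action, 8 were higher and 0 lower in fasted than in CL316243-treated AAKO mice (60.0% of all genes called), led by Sgk1 (3.32), a kinase, Dusp1 (2.73), a phosphatase, and Zbtb16 (1.84), a transcription factor. For CL316243 against fed, 5 of the 9 were lower in AAKO mice (Tsc22d3 -2.15) and 8 of the 9 in CTRL mice, with 0 higher in either, beside 31.4% and 23.1% of all genes called. Between fasted genotypes 7 were higher in AAKO and 1 lower, beside 49.2% of all genes called. Tat belongs to the hepatocyte markers too. So do Alb, Apoa1 and Ttr of the genes that fall in the acute phase and Fgb of those that rise.

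The receptors and partners that clear the member proteins were called in numbers near those of all genes in the AAKO comparisons described here. Elsewhere this did not always hold. In CTRL mice 1 of 10 was called for fasting against feeding (43.8% of all genes) and 6 of 10 for fasting against CL316243 (37.1%). In fasted against CL316243-treated AAKO mice 5 of 10 were higher and 2 lower, with 60.0% of all genes called. Hmox1, the heme oxygenase that degrades the heme taken up with hemopexin, was higher by 1.10, and Lrp1, the receptor for hemopexin with heme, was lower by 1.82. Scarb1, which takes up high density lipoprotein, was higher by 0.87. For CL316243 against fed AAKO mice 0 were higher and 3 lower, with 31.4% of all genes called, among them Fpr2, a receptor that serum amyloid A can activate (-0.61), and Slc22a17, a receptor for lipocalin 2 (-0.44).

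The 3 tested genes most like each member over the 36 arrays were named by Pearson r of their values, which are chosen maxima and carry no test. Itih4, of the inter-alpha-trypsin inhibitor family, was nearest to Saa1 (r = 0.897) and Saa2 (r = 0.895). Cep55, a protein of cell division, was second for both and first for Lcn2 (r = 0.910). Shank2 was nearest to Orm1 (r = 0.963), Orm2 (r = 0.959) and Hpx (r = 0.956). The complement gene C3 was nearest to Hp (r = 0.946), and Clu, the secreted chaperone clusterin, to Orm3 (r = 0.839). Lsm6, a subunit of an RNA-binding ring, was nearest to Saa4 (r = 0.963). None of the genes nearest to Saa4 was among those nearest to another of the 10.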

How the data were processed

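Spot intensity values were deposited for 36 one-colour arrays. Per the file headers they were made by Agilent Feature Extraction 10.10.1.1, which subtracted a background and removed a trend within the array. The authors also deposited a log2 value table of 36898 probes, whose normalization is not stated in the sources used here. From the scanner files, log2 of the processed signal was taken without outlier-marked spots (0.127%), spots of a probe were averaged, and the array's 75th percentile over probes was subtracted. A gene was represented by its brightest probe and tested if well above background on 5 of 6 arrays of a group. Differences came from limma 3.58.1 in R 4.3.3, on a design of group means plus an additive term for wash batch, and p-values adjusted by Benjamini-Hochberg over 24251 genes at 0.05; all p-values are two-sided. In simulated data for CL316243 against fed AAKO mice, run on 24251 genes, 82 of 100 genes changed by 1 log2 unit were recovered and 99 of 100 changed by 2. Of 24051 unchanged genes 12 were called. The changed genes were drawn at random and kept their own spread, which was the same in all groups. No other gene differed between groups, while 31.4% of all genes were called in the real comparison. The real SD of Saa1 was 2.52 in fed and 0.12 in CL316243-treated AAKO mice. The recovered shares thus describe the simulated setting. In the real comparison the SE was 1.00 to 1.30 for Saa1, Saa2, Saa3, Orm3 and Lcn2. A change of 1 unit is no more than 1 SE there, so these shares do not apply to those genes. The number of arrays limits precision. The members and lists were chosen with earlier results of these data known. Named list genes are those with the largest differences among called genes. Same-numbered mice were not paired: the correlation of their residuals ran from -0.151 to 0.259, above 0.1 in 11 of 54 pairs.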

Additional observations from a re-analysis of the deposited data

Results flagged for a closer look

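Of 60 sets of 6 mice (10 genes in 6 groups), 9 held a mouse far from the others, where the gap to the nearest mouse, as a share of the whole range, passed Dixon's 95% critical value. Chance gives such a gap in about 1 in 20 sets, and the genes move together, so these are not 9 separate events. They came from 2 mice. Fed CTRL replicate 6 stood above its group in Saa1 (gap 0.67 of the range; 10.14 against 7.42 for the next mouse), Saa2 (0.64), Orm3 (0.627) and Lcn2 (0.717). Fasted CTRL replicate 5 stood above its group in Saa3 (0.878; 9.13 against 2.28), Orm1 (0.709), Orm2 (0.695), Hp (0.677) and Hpx (0.646).

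The following 3 differences between genotypes in a response passed the test of the difference itself. The response of Saa4 to CL316243 against feeding was greater in AAKO mice by 1.25, and its drop on fasting against CL316243 was greater by 1.59 (difference -1.59). For Hp the difference on fasting against CL316243 was -0.79.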

How the results depend on the processing

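All 22 called differences, of 120 over 10 genes and 12 comparisons, kept their direction under 13 alternatives and with each of 36 arrays left out. Of these, 5 kept their call throughout: Saa4 in the 4 comparisons of fasting with feeding or CL316243, and Hp on fasting against CL316243 in AAKO mice. Of the 98 differences not called, 40 changed sign at least once. Among those printed here, these were Lcn2 within wash batch 2, for fasting against feeding (-0.72) and CL316243 against feeding (-0.21) in CTRL mice, and within wash batch 1 Orm3 for fasting against CL316243 in AAKO mice (-0.28) and Saa4 for CL316243 against feeding in CTRL mice (0.10). The cause was not tested.

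Counts of called members changed as follows, and where no cause is given it was not tested. For the genotypes in fasted mice (2 called) the count was 1 with the array median, without the filter on dim probes and with only the groups compared, and 0 within wash batch 2. For the genotypes with CL316243 (1 called) it was 0 without the filter, without the wash batch term and within either batch. For CL316243 against fed AAKO mice (4 called) it was 2 without the filter, 3 with only the groups compared, 5 with slide as a fixed factor, 1 within batch 1 and 0 within batch 2. For fasting against CL316243 in AAKO mice (8 called) it was 7 without the filter, under quantile normalization, with the authors' table and with slide as a fixed factor, Orm2 being lost each time, and 5 and 2 within the batches. In CTRL mice (1 called) it was 2 with the array median. For fasting against feeding in AAKO mice (2 called) it was 1 within either batch. The difference between genotypes on fasting against feeding (0 called) gave 1, Hp, under quantile normalization and with the authors' table. That on CL316243 against feeding (1 called) was 0 within either batch. That on fasting against CL316243 (2 called) was 1 without the filter, 1 within batch 1 and 0 within batch 2. Within a batch there are 2 to 4 mice per group, so fewer samples entered each test.

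With 1 array left out the counts ran from 0 to 0 for genotypes in fed mice, 1 to 2 in fasted mice and 0 to 2 with CL316243. For fasting against feeding they ran from 1 to 1 in CTRL and 1 to 2 in AAKO mice, for CL316243 against feeding from 0 to 0 and 1 to 6, and for fasting against CL316243 from 1 to 5 and 5 to 8. The 3 differences between genotypes ran from 0 to 1, 1 to 1 and 1 to 2. With the replicate number as a block the counts were unchanged in all 12 comparisons (8 for fasting against CL316243 in AAKO mice). The same-numbered mice share only a number.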
